A study of Mus musculus with 6 samples.

Results

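The vacuolar-type proton pump (V-ATPase) is a rotary motor in which a cytosolic sector, V1, hydrolyses ATP and turns a rotor, and a membrane sector, V0, carries protons across the membrane. In osteoclasts the pump is inserted into the ruffled border and acidifies the space between the cell and bone, which dissolves the mineral, and in all cells it acidifies lysosomes. The genes described here are the 8 subunits of V1 in their widely expressed forms, *Atp6v1a*, *Atp6v1b2*, *Atp6v1c1*, *Atp6v1d*, *Atp6v1e1*, *Atp6v1f*, *Atp6v1g1* and *Atp6v1h*. They were taken by name, not by a cut on any measured value, but with earlier results of these data known. All 8 were found among the 55573 genes counted. ATP is split at the interfaces of subunits A and B. The other subunits form the rotor, the outer stalks that hold the A and B ring in place, and the parts that regulate coupling to V0, so that only the former are catalytic in the strict sense.

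RNA was sequenced from 3 control and 3 Rosa-Hes1 osteoclast cultures. Bone marrow–derived macrophages (BMMs) of male mice aged 10 weeks were kept for 4 days in M-CSF at 30 ng/ml, a survival factor of the lineage, and RANKL at 10 ng/ml, the cytokine that induces osteoclasts. Rosa-Hes1 stands for Ctsk Cre/WT;Rosa Hes1 mice, in which Cre knocked into the cathepsin K (*Ctsk*) locus removes a stop cassette and lets the *Rosa26* locus express HES1, a basic helix-loop-helix repressor and Notch target, together with GFP. The controls are labelled as wild type, whereas the study describes littermates that carry the *Rosa* allele with its stop cassette in place. Thus the groups differ by 1 *Ctsk* allele as well as by HES1. The *Rosa* line came from ICR mice and the Cre line was kept in C57BL/6. *Ctsk* is also expressed outside osteoclasts, and whole cultures were extracted without sorting, so HES1 was induced only as cells switched *Ctsk* on and the libraries hold precursors as well. The labels call the samples of a group biological replicates but do not tie each to an animal, and the p-values measure the spread between these libraries.

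Gene counts were 13038362 to 15956331 per library. *Hes1* was at 0.457 ± 0.141 CPM (read counts scaled to a common library size, with TMM as the normalization across genes) in control and 5.56 ± 1.17 CPM in Rosa-Hes1 libraries (SD, n = 3 each), with a log2 fold change of 3.57 (standard error 0.30, edgeR adjusted p = 0.00477), and every Rosa-Hes1 library was above every control. On the first principal component, which held 38.1% of the variance, Rosa-Hes1 replicate 2 was at 2.76 between the controls (-43.6 to -15.7) and the other Rosa-Hes1 libraries (36.4 and 38.2). Of the 12 osteoclast markers, 10 were higher in Rosa-Hes1 at an adjusted p under 0.05, and *Ctsk* itself was not among them. Several of these markers were singled out by the study for these same samples. Of the 12 markers of macrophages and precursors, 1 was lower, and of the 21 markers of stroma, B, T and NK cells, neutrophils and endothelium that could be tested, 0 were called by edgeR, DESeq2 or limma-voom, and 1 had an unadjusted p under 0.05 in edgeR.

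In Rosa-Hes1 osteoclasts 7 of the 8 V1 genes were higher than in control, by 1.38-fold (*Atp6v1f*) to 1.65-fold (*Atp6v1a*). The exception was *Atp6v1c1*, whose values scattered more than 3-fold within each group. These calls were made at an adjusted p (Benjamini-Hochberg) under 0.05 in edgeR's quasi-likelihood test over 16954 genes, of which 5.85% were called higher and 2.41% lower. Among the 2178 genes with a mean level inside the range of the members, 117 to 1698 CPM, 14.1% were called higher and 4.68% lower. The number of V1 genes called lower was 0, with 0 at an unadjusted p under 0.05 and 0 by DESeq2 or limma-voom. The median log2 fold change of the 8 was 0.50, compared with -0.01 over all genes tested. The 7 genes had every Rosa-Hes1 library above every control library, an order seen in 16.6% of all genes tested and its opposite in 14.5%.

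How many of the 7 passed the threshold depended on the libraries. Leaving out control replicate 1 or 3, or the first Rosa-Hes1 replicate, lowered it to 2, and leaving out Rosa-Hes1 replicate 3 to 3. It was 7 when either replicate 2 was left out. *Atp6v1a* and *Atp6v1d* were called in each of these fits. The log2 fold changes of the 7 stayed between 0.39 and 0.79, and the number of all genes called higher moved between 244 and 1555.

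**Figure D1:**
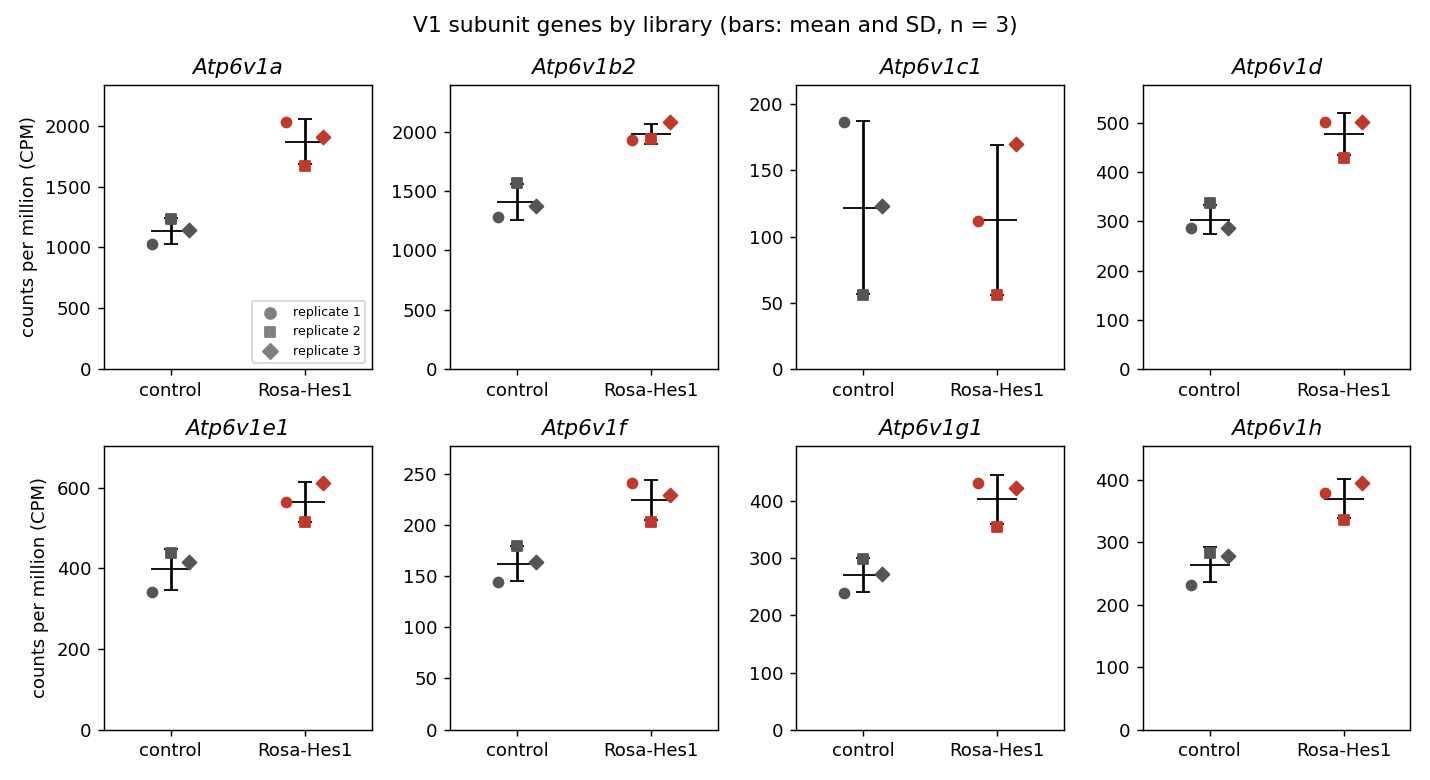
CPM of each V1 subunit gene in the 3 control (grey) and 3 Rosa-Hes1 (red) libraries, with the replicate number as the shape of the point and the mean and SD as black bars. In 7 panels the red points are all above the grey ones, and in the *Atp6v1c1* panel the lowest point is at 55.5 CPM in grey and 55.9 CPM in red and the groups overlap.

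The A and B subunits build the ring that hydrolyses ATP. *Atp6v1a* (ENSMUSG00000052459, GRCm38 chromosome 16 from 44085402 to 44139705, minus strand), the A subunit, which holds the catalytic site, was at 1027, 1237 and 1146 CPM in control replicates 1, 2 and 3 and at 2033, 1671 and 1906 CPM in the Rosa-Hes1 replicates. The groups did not overlap, and the lowest Rosa-Hes1 library was replicate 2. The fold change was 1.65 (95% interval 1.41 to 1.92, adjusted p = 0.00694, edgeR).

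*Atp6v1b2* (ENSMUSG00000006273, chromosome 8 from 69088646 to 69113711, plus strand), the B subunit found in osteoclasts and the brain, was at 1279, 1571 and 1379 CPM in the controls and at 1935, 1942 and 2085 CPM in Rosa-Hes1 libraries. Here too the groups were apart, but the Rosa-Hes1 libraries differed less among themselves than those of *Atp6v1a*. The fold change was 1.41 (1.23 to 1.62, adjusted p = 0.0147, edgeR). The threshold was missed when control replicate 1 or 3 or Rosa-Hes1 replicate 1 was left out, with adjusted p of 0.0517 to 0.0603.

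*Atp6v1d* and *Atp6v1f* encode the D and F subunits of the central rotor, which turns inside the ring. *Atp6v1d* (ENSMUSG00000021114, chromosome 12 from 78840725 to 78861638, minus strand) was at 287, 337 and 286 CPM in the controls and 502, 428 and 502 CPM in Rosa-Hes1 libraries. The control replicate 2 was again the highest control and Rosa-Hes1 replicate 2 the lowest of its group, with a gap between them. Its fold change of 1.57 (1.36 to 1.82, adjusted p = 0.00766, edgeR) was the second largest of the 8.

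*Atp6v1f* (ENSMUSG00000004285, chromosome 6 from 29467718 to 29470512, plus strand) was at 144, 179 and 163 CPM in the controls and 241, 202 and 229 CPM in Rosa-Hes1 libraries, in the same order within each group as *Atp6v1a*. The groups did not overlap. The fold change was 1.38 (1.19 to 1.61, adjusted p = 0.0251, edgeR), the smallest of the 7. It missed the threshold in each of the 4 fits named above that lost calls, with adjusted p up to 0.104, and with the replicate number as a block (adjusted p = 0.0550).

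*Atp6v1e1* and *Atp6v1g1* encode the E and G subunits, which pair into the outer stalks that keep the ring from turning with the rotor. *Atp6v1e1* (ENSMUSG00000019210, chromosome 6 from 120794305 to 120822793, minus strand) was at 341, 438 and 415 CPM in the controls and 566, 516 and 613 CPM in Rosa-Hes1 libraries. The fold change was 1.42 (1.20 to 1.67, adjusted p = 0.0253, edgeR).

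*Atp6v1g1* (ENSMUSG00000039105, chromosome 4 from 63544772 to 63550750, plus strand) was at 239, 299 and 273 CPM in the controls and 432, 354 and 423 CPM in Rosa-Hes1 libraries. The fold change was 1.49 (1.26 to 1.76, adjusted p = 0.0161, edgeR). Neither stalk gene overlapped between the groups, and both missed the threshold in the same 4 fits, at adjusted p up to 0.0959 and 0.0760, respectively.

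*Atp6v1h* and *Atp6v1c1* encode subunits at the junction with V0. The H subunit keeps free V1 from hydrolysing ATP, as shown in yeast, and the C subunit joins the stalks to V0 and leaves when the sectors separate. *Atp6v1h* (ENSMUSG00000033793, chromosome 1 from 5070018 to 5162529, plus strand) was at 231, 283 and 278 CPM in the controls and 379, 336 and 395 CPM in Rosa-Hes1 libraries. The groups were apart, with a fold change of 1.40 (1.20 to 1.63, adjusted p = 0.0211, edgeR), and adjusted p reached 0.0902 in the same 4 fits.

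*Atp6v1c1* (ENSMUSG00000022295, chromosome 15 from 38661933 to 38692446, plus strand) was at 187, 55.5 and 123 CPM in the controls and 112, 55.9 and 170 CPM in Rosa-Hes1 libraries, from 2529, 897, 1667, 1695, 856 and 2335 reads. Both groups held a low, a middle and a high library, and they overlapped throughout. The fold change was 0.924 with an interval of 0.318 to 2.68 (adjusted p = 0.935, edgeR), which takes in the changes of all 7 other genes and also none, and its log2 value changed sign between fits, from -0.55 to 0.33.

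**Figure D2:**
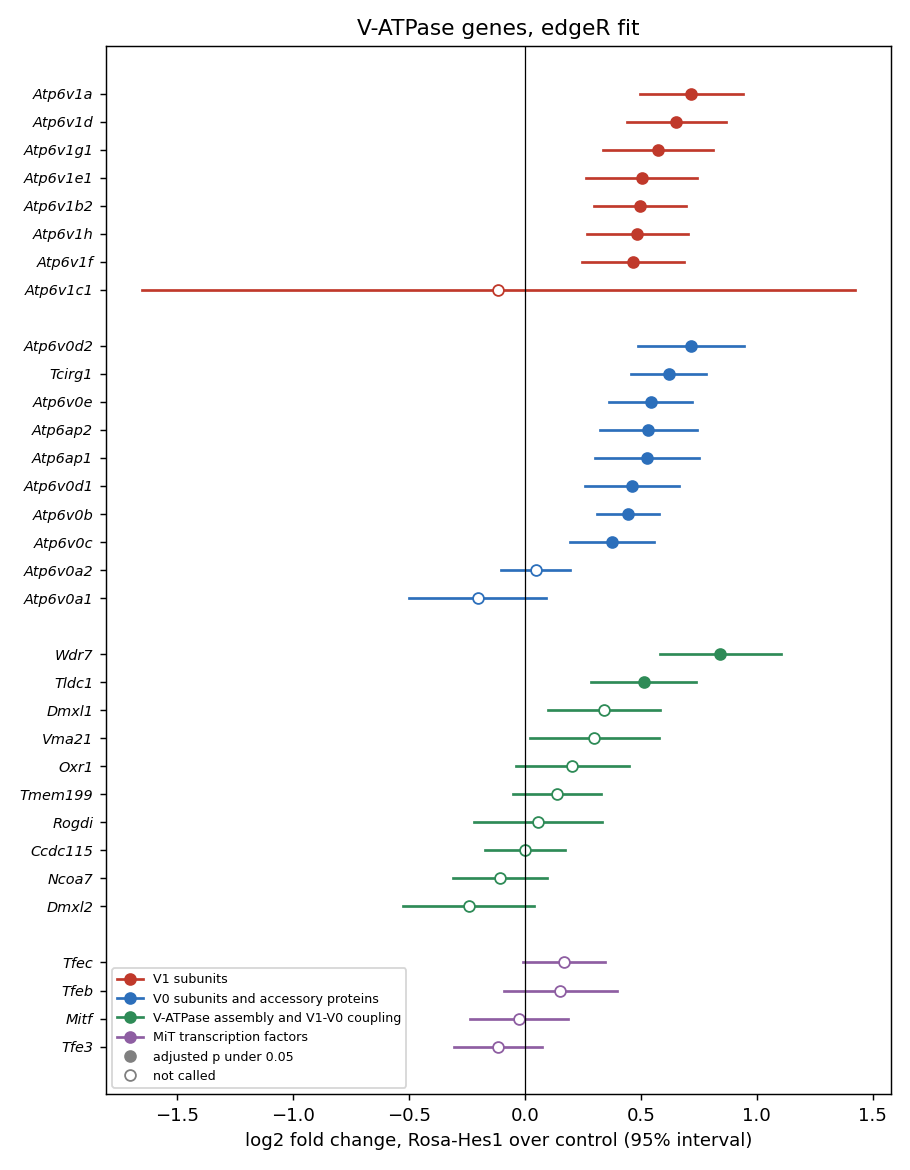
Log2 fold change, Rosa-Hes1 over control, with its 95% interval from edgeR, for the V1 genes (red), V0 and accessory genes (blue), assembly and coupling genes (green) and MiT factors (purple), with filled points for an adjusted p under 0.05. The called V1 genes lie between 0.47 and 0.72 and the called V0 genes between 0.38 and 0.72, while *Atp6v1c1* has an interval from -1.65 to 1.42 (*Atp6v0e2*, at 13 reads in all, is left out).

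The SD of the log2 CPM of *Atp6v1c1* within groups was 0.85, where the median over the 2622 genes that averaged 100 CPM or more was 0.0926, and it ranked 4th highest among them. The other 7 V1 genes had SDs of 0.115 to 0.161. Its level did not follow theirs. Control replicate 1, the lowest of all 6 libraries for *Atp6v1a*, *Atp6v1b2*, *Atp6v1e1*, *Atp6v1f*, *Atp6v1g1* and *Atp6v1h*, was the highest for *Atp6v1c1*, and control replicate 2 and Rosa-Hes1 replicate 2 were its lowest. *Azin1*, an inhibitor of antizyme that starts at 38487427 on the same chromosome and was chosen after the values were seen, lay between 241 and 261 CPM over the 6 libraries, 1.08-fold from lowest to highest, compared with 3.36-fold for *Atp6v1c1*. The origin of the scatter was not tested.

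**Figure D3:**
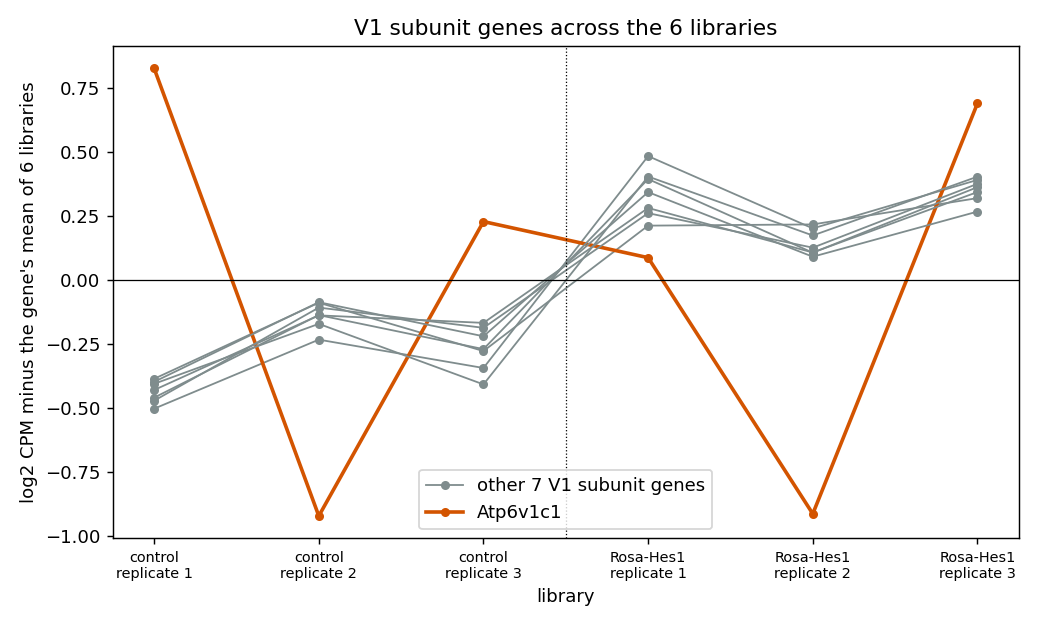
Log2 CPM of each V1 gene in each library minus the mean of that gene over the 6 libraries, with lines that only join the points of 1 gene. The 7 genes in grey move as a band, below 0 in the controls and above 0 in the Rosa-Hes1 libraries, and *Atp6v1c1* in orange runs from -0.92 in control replicate 2 to 0.83 in control replicate 1.

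The pump holds its subunits in fixed proportions, and the levels of the transcripts were compared per length, as CPM per kilobase of exon (the union of the exons of a gene in GENCODE M21). The order was the same in both groups, *Atp6v1b2*, *Atp6v1g1*, *Atp6v1a*, *Atp6v1f*, *Atp6v1e1*, *Atp6v1d*, *Atp6v1h* and *Atp6v1c1*. *Atp6v1b2* was at 266 ± 28.0 CPM per kilobase in control and 375 ± 15.9 in Rosa-Hes1 libraries. *Atp6v1h* was at 27.1 ± 2.91 and 38.0 ± 3.16, and *Atp6v1c1* at 21.7 ± 11.7 and 20.1 ± 10.2 (SD, n = 3 each). Within the libraries *Atp6v1b2* was on average 19.5 times *Atp6v1c1*. This average takes in the scatter of *Atp6v1c1*, which ran from 9.91 to 33.3 CPM per kilobase over the 6 libraries.

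Within the libraries, *Atp6v1b2* was 1.09 ± 0.0770 times *Atp6v1g1* (SD, n = 6), above it in 5 of 6, and *Atp6v1h* was 1.95 ± 1.05 times *Atp6v1c1*, above it in 5 of 6. With this length, these 2 pairs of neighbours did not keep their order in every library. The other 5 pairs did so in all 6 libraries, and *Atp6v1d* and *Atp6v1h*, 2.59 ± 0.219 times apart, were the only neighbours whose ranges over the 6 libraries were separate. Taking the longest transcript in place of all exons put *Atp6v1b2* at 601 CPM per kilobase, *Atp6v1a* at 355 and *Atp6v1g1* at 297. *Atp6v1b2* was then 1.73 ± 0.176 times *Atp6v1a*, *Atp6v1h* was 3.46 ± 1.87 times *Atp6v1c1*, and all 7 pairs of neighbours kept their order in all 6 libraries, so the order of the top genes rests on the length used.

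**Figure D4:**
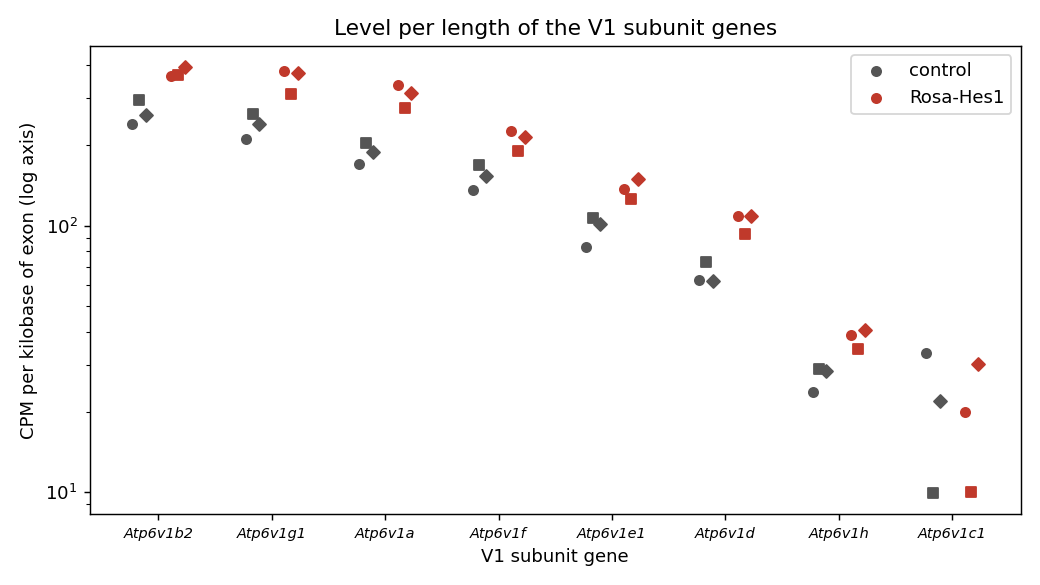
CPM per kilobase of exon of the V1 genes on a log axis, in descending order of the mean, for the control (grey) and Rosa-Hes1 (red) libraries, with circles, squares and diamonds for replicates 1, 2 and 3. The highest gene, *Atp6v1b2*, is at 241 or more in every library and the lowest, *Atp6v1c1*, between 9.91 and 33.3.

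Whether the genes changed in proportion was asked by taking each gene as a log2 ratio to the mean of the other 7. Under this measure the groups overlapped for all 8 genes, with exact two-sided permutation p of 0.2 to 1, where 3 libraries against 3 cannot give less than 0.1. The scatter of *Atp6v1c1* enters every such mean. When it was left out of the reference, a choice made after seeing the data, the ratio of *Atp6v1a* to the other 6 was 0.19 higher in Rosa-Hes1 on the log2 scale, and those of *Atp6v1f* and *Atp6v1h* were 0.11 and 0.08 lower, without overlap between the groups (exact permutation p = 0.1 each, the smallest possible). The other 4 overlapped. These ratios are not independent, because each gene is part of the reference of the others, and their p-values were not adjusted over the genes. The share of *Atp6v1a* in the summed V1 level per length was 17.8 ± 0.123% in control and 20.0 ± 0.765% in Rosa-Hes1 libraries, and that of *Atp6v1f* 14.4 ± 0.253% and 13.6 ± 0.410% (SD, n = 3 each).

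Some V1 subunits have a second isoform restricted to kidney, testis, brain or other tissues. Of these 5 genes, 4 had at most 3 reads in all. *Atp6v1b1*, the B isoform of kidney and inner ear, and *Atp6v1e2*, a testis form, had 0 reads in all 6 libraries, which allows up to 0.0343 CPM (3 counts over all libraries, counting error only). *Atp6v1c2* had 3 reads in all and *Atp6v1g3* 1 read, and they were not tested. *Atp6v1g2*, a neuronal G isoform, was at 2.66, 1.42 and 2.88 CPM in the controls and 2.37, 2.28 and 2.47 CPM in Rosa-Hes1 libraries, with overlapping groups and a fold change of 1.03 (0.656 to 1.62, adjusted p = 0.949, edgeR). That gene overlaps *Nfkbil1* on the opposite strand, and whether the counting used strand is not given in the sources used here. *Atp6v1g2* was thus the 1 isoform of the 5 that could be tested, and it was not called by edgeR, DESeq2 or limma-voom. With the 4 untested isoforms left out, *Atp6v1g2* made up 0.0893 ± 0.0347% of the summed level per length of itself and the V1 members in control libraries. In Rosa-Hes1 libraries its share was 0.0612 ± 0.00307%.

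Most genes of the V0 sector, to which V1 binds, moved by like amounts. Of 12 V0 and accessory genes, 11 could be tested and 8 were higher and 0 lower, with 0 lower at an unadjusted p under 0.05 or by DESeq2 or limma-voom. The other 3 were not called, and the lowest log2 fold change was -0.20. The median log2 fold change of the 11 was 0.53, and it was 0.49 over the 10 that averaged 1 CPM or more. The V0 genes with the smallest adjusted p were *Tcirg1*, the a3 subunit that takes the pump to the ruffled border (log2 fold change 0.62, adjusted p = 0.00550), *Atp6v0b* of the proteolipid ring (0.45, 0.00659), *Atp6v0d2*, the d isoform of osteoclasts (0.72, 0.00758), and *Atp6v0e* (0.54, 0.00795, all edgeR). The rise of *Atp6v0d2* was already reported by the study, from its RNA-Seq of these samples and from quantitative RT–PCR. Leaving out control replicate 1 or Rosa-Hes1 replicate 1 left 4 of the V0 genes called, and leaving out Rosa-Hes1 replicate 3 left 5. The summed level of the V1 genes was 960, 1152 and 1057 CPM per kilobase in control and 1614, 1408 and 1625 in Rosa-Hes1 libraries, and every Rosa-Hes1 library was above every control. Its mean rose 1.47-fold, from 1056 ± 96.0 to 1549 ± 122, and that of the V0 genes also 1.47-fold. The ratio of V1 to V0 was 0.782 ± 0.0142 in control and 0.782 ± 0.0225 in Rosa-Hes1 libraries (SD, n = 3 each), with groups that overlapped.

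The 10 osteoclast markers called higher rose by 1.39- to 2.20-fold. The 12 markers summed to 10715 to 13797 CPM in the controls and 17126 to 20135 CPM in Rosa-Hes1 libraries, and the V1 genes to 3734 to 4401 and 5505 to 6322 CPM. The ratio of V1 genes to markers was 0.349, 0.319 and 0.320 in control and 0.318, 0.321 and 0.314 in Rosa-Hes1 libraries, and the groups overlapped. That overlap rests on *Ctsk*, which held 2730 to 3545 CPM of the sums, had a fold change of 1.06 and carries the Cre in 1 group only. Without it, a choice made after seeing the data, the ratio was 0.468, 0.427 and 0.428 in control and 0.388, 0.388 and 0.381 in Rosa-Hes1 libraries, lower in every Rosa-Hes1 library. *Mmp9*, a collagenase of osteoclasts, held 4345 to 9015 CPM of the sums, and the groups overlapped without it and were apart, with lower Rosa-Hes1 ratios, without both genes. In these unsorted cultures, a different number of osteoclasts and a different amount of V1 transcript per osteoclast cannot be told apart. For the induced genotype at the same age, culture time and cytokine doses, the study reports more osteoclasts than in control cultures. It also reports more osteoclasts with many nuclei. Whether those counts came from the sequenced cultures is not stated, and their part in the V1 levels was not tested. The macrophage markers summed to 4793 to 5851 CPM in the controls and 4540 to 5659 CPM in Rosa-Hes1 libraries, and the stroma markers to 192 to 543 and 119 to 407 CPM. Their part in the V1 result was not tested.

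**Figure D5:**
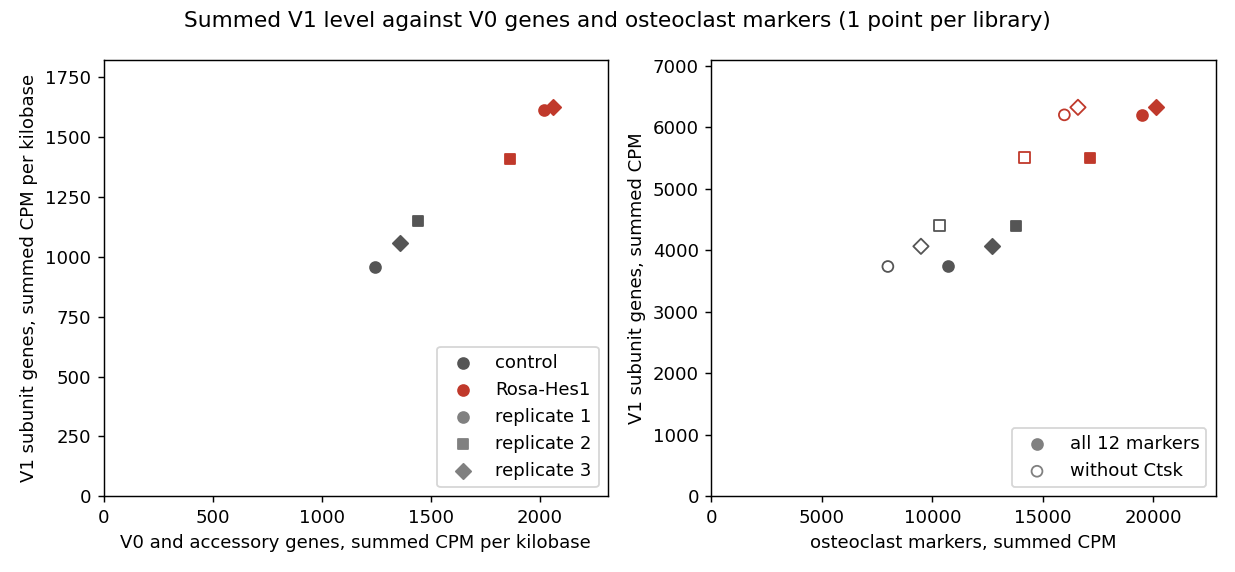
Summed V1 level of each library against the summed level of V0 and accessory genes (left, both in CPM per kilobase) and of osteoclast markers (right, both in CPM; filled points for all 12 markers and open points without *Ctsk*), with both axes from 0, grey for control and red for Rosa-Hes1. In the left panel the ratio of V1 to V0 overlaps between the groups, with the Rosa-Hes1 libraries at 1408 CPM per kilobase or more and the controls at 1152 or less, and in the right panel the V1 level per marker level overlaps for the filled points and is lower in Rosa-Hes1 for the open ones.

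Other proteins assemble the pump or bear on the coupling of V1 to V0. Of 11 such genes, 10 could be tested and 2 were higher and 0 lower, with a median log2 fold change of 0.17. At an unadjusted p under 0.05 or by DESeq2 or limma-voom, 0 were lower. Of all genes tested 5.85% were called higher, and of those at the level of the V1 genes 14.1%. *Wdr7*, a partner of the DMXL proteins in the complex that loads V1 onto V0, had a log2 fold change of 0.84 (adjusted p = 0.00710, edgeR). *Tldc1*, which has a TLDc domain of the kind that binds V1, had 0.51 (adjusted p = 0.0199) but passed in 1 of the 6 fits that left out a library. *Mitf*, *Tfeb*, *Tfe3* and *Tfec*, the MiT factors that bind E boxes of lysosomal and pump genes, were at 0 of 4 called by edgeR, DESeq2 or limma-voom, with 0 at an unadjusted p under 0.05. *Tfec*, with the smallest p, was at 46.6 ± 3.59 CPM in the controls and 52.4 ± 1.22 CPM in Rosa-Hes1 libraries (log2 fold change 0.17, adjusted p = 0.213).

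The promoters of the V1 genes were read for the letters that MiT factors and HES1 are known to bind, because the genes moved together and HES1 was the factor induced. RefSeq promoter windows on GRCm38.p6, from 250 bases before to 50 after the start, were matched for *Atp6v1a*, *Atp6v1d*, *Atp6v1e1* and *Atp6v1f*. The motifs were CACGTG (the E box), TCACGTGA (the E box as MiT factors prefer it, which contains the former), CACGNG (the class C site of HES proteins, which contains the E box) and CACNAG (the N box), on both strands. The 30 bases around the matches are given 5′ to 3′ on the strand of the gene, with the motif in capitals.
*Atp6v1a*, chr16:44139373-44139402: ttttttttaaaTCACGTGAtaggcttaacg
*Atp6v1e1*, chr6:120822871-120822900: ttgccaagcagtCACGAGtcagtttaaaaa
*Atp6v1f*, chr6:29467539-29467568: ggtctctaataaCACTAGgttcaaaaggca

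The match in *Atp6v1a* starts 132 bases before the RefSeq start, and in GENCODE M21 it falls in the first intron of the models that begin farther upstream. TCACGTGA was in 0.974% of the 32851 windows of the table and CACGTG in 7.15%. The match in *Atp6v1e1*, 190 bases before the start, is both a class C site and an N box, which 27.5% and 42.5% of the windows hold. The N box in *Atp6v1f* is 232 bases before the start. The window of *Atp6v1d* held 0 of the 4 motifs, and its fold change of 1.57 lay between those of *Atp6v1a* and *Atp6v1e1*. Whether the motifs go with the fold changes was not tested. A match describes the letters of a window and does not show that a factor binds there.

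The genes whose pattern over the 6 libraries was nearest to the mean of the 8 V1 genes, out of 9089 other genes that averaged 10 CPM or more, were *Rhbdd1*, *Mink1*, *Flvcr1*, *Selenoo* and *Snx14*. They lay 0.0408 to 0.0542 from it, as the root mean square of the differences in log2 CPM, whereas the V1 genes themselves lay 0.0874 to 0.691 from their mean. With *Atp6v1c1* left out, a choice made after seeing the data, the nearest were *Zfand2a*, *Atp6ap2*, *Ndfip2* and *Ddhd1*, at 0.0162 to 0.0236. Of these *Atp6ap2*, a membrane accessory protein of the pump, was at 0.0175, nearer than any of the 7 V1 genes, which were at 0.0293 to 0.0861. *Atp6v1c1* was at 0.79 from the mean of the 7.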

How the data were processed

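RNA-Seq libraries (TruSeq Stranded mRNA, paired ends, 1 sequencing pool) of 3 control and 3 Rosa-Hes1 osteoclast cultures were analysed. The authors trimmed reads with Sickle, aligned them with HISAT2 2.1.0 and SAMtools 1.9, used Picard to take out duplicates and HTSeq to count reads over genes. The methods name a human genome, but the processing notes give GRCm38 and all identifiers are of mouse genes. The deposited counts are whole numbers without normalization. Reads outside genes were 17.4% to 18.1% and ambiguous reads 5.51% to 6.07% of each library and were left out. Reads in overlaps of genes can be lost or shared: *Atp6v1e1* and *Atp6v1h* overlap exons of genes on the opposite strand by 32 and 127 bases.

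Names, positions and lengths came from GENCODE M21, in which 93 identifiers had no symbol. Genes under 10 counts in sum were left out. The main test was edgeR 4.0.16 (R 4.3.3, TMM, robust quasi-likelihood, no covariate, Benjamini-Hochberg over all genes). The study used DESeq2 with covariates that it does not name. Single ratios were tested with exact two-sided permutation over libraries. Alternatives were other size factors and filters, DESeq2 1.42.0, limma-voom 3.58.1 with quality weights, the replicate number as a block, 1 surrogate variable (sva 3.50.0) and leaving out each library. The tests were checked on simulated data. Counting error is small at this depth, and pairs of replicates differed by a chi-square per degree of freedom of 9.49 to 18.4. Thus none was the same library sequenced again. Whether replicates came from separate animals cannot be read from this value.

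The members and the lists of other genes were chosen with earlier results of these data known. The genes named are all members and isoforms, *Hes1*, from each of the V0, assembly and MiT lists every called gene, or the 4 with the smallest adjusted p where more than 4 were called, or the 1 with the smallest where 0 were, and the 5 genes nearest to the mean of the members. A neighbour of *Atp6v1c1*, *Nfkbil1* and the genes nearest to the mean of 7 were named outside this rule, and some genes are not reported here.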

Additional observations from a re-analysis of the deposited data

How the results depend on the processing

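The 7 V1 genes called higher kept their direction in all 14 alternative fits. The number called was 7 in 7 of the 8 fits that used every library and 6 with the replicate block. Leaving out 1 library gave 2 to 7 V1, 4 to 8 V0 and 1 to 2 assembly and coupling genes called higher. Over the whole table it gave 244 to 1555 genes higher and 21 to 1091 lower. The number of all genes called lower, 408, was 697 with no filter, 876 with DESeq2, 917 with limma-voom and 981 with 1 surrogate variable. *Atp6v1c1* changed sign to 0.21 with limma-voom and ran from -0.55 to 0.33 without 1 library, above 0 when control replicate 1 (0.33) or Rosa-Hes1 replicate 2 (0.21) was left out. Genes that were not called also changed sign on the log2 scale. *Ccdc115* went to 0.0033 with filterByExpr, 0.0014 with no filter and 0.017 with limma-voom. Without 1 library, *Ccdc115* ran from -0.049 to 0.062, *Atp6v1g2* from -0.22 to 0.23, *Mitf* from -0.095 to 0.047 and *Rogdi* from -0.036 to 0.13. The level of the highest over the lowest V1 gene, taken within each library, averaged 20.1 and was 32.2 with the longest transcript. With that length, 0 neighbours in the order of levels changed places in some library, compared with 2 pairs. The number of V1 genes whose ratio to the others did not overlap between the groups, 0, was 3 with the median of the other 7 as the reference, 3 with *Atp6v1c1* left out of it, and 0 to 4 without 1 library, where smaller groups overlap less easily (leaving out control replicate 2 gave 4, and Rosa-Hes1 replicate 3 gave 2).

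The deviations of same-numbered libraries from their group means correlated at 0.00073, -0.16 and 0.38 over 12494 genes. Differently numbered pairs ran from -0.49 (control replicate 1 with Rosa-Hes1 replicate 3) to 0.48 (control replicate 1 with Rosa-Hes1 replicate 2). Deviations from a mean of 3 libraries are tied to each other, so these values cannot decide whether samples were paired by litter or batch. With the replicate block 710 genes were higher and 340 lower, and *Atp6v1f* was the V1 gene that missed the threshold. With 3 libraries per group, depth did not limit any of the 8 members. It limits the isoforms, of which 4 had at most 3 reads in all.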
